A study of Rattus norvegicus with 5 samples.

Results

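The core circadian clock was examined in rat liver through 6 genes: the activators Bmal1 and Clock, the repressors Per2, Per3 and Cry1, and Nr1d1, which encodes the nuclear receptor REV-ERB alpha. They were taken by name from the gene annotation of the array, and all 6 were measured, each by a single probe set, among 7589 genes with 1 symbol and 8797 probe sets. RNA came from the livers of male rats aged 4 months, fed standard chow. The control group was the PD strain, with 3 arrays. The other group was the congenic strain PD.SHR4, with 2 arrays, in which a part of chromosome 4 was replaced by that of the spontaneously hypertensive rat (SHR). The series text writes its name as PD.SHR4a. Each strain was represented by 8 rats, whose labelled cDNA was pooled before hybridisation, so the spread between arrays may be technical and does not measure the spread between rats. Neither the hour of liver collection nor the feeding state is given in the labels. A difference of hour or feeding between the strains and a difference of genotype therefore cannot be told apart.

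The mammalian clock is a transcriptional feedback loop that runs in nearly every cell. BMAL1 and CLOCK form a dimer that binds E-box elements and switches on the Per and Cry genes, whose proteins return to the nucleus and block the dimer. The same dimer drives Nr1d1, and REV-ERB alpha in turn silences Bmal1 by binding elements that it shares with the activating ROR receptors. In liver, Bmal1 RNA therefore peaks at a nearly opposite phase to Nr1d1, Per2 and Per3 RNA, and the clock times many metabolic genes.

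The sequences just before the transcript starts show which of these elements lie there. The RefSeq promoter table of assembly GRCr8 held 7 windows for 5 of the members, and only the 250 bases before each start were searched. The motifs were the E-box CACGTG, the E-box-like CACGTT, the D-box TTATGTAA with its variants TTACGTAA and TTATATAA, the REV-ERB and ROR cores TAGGTCA and TGGGTCA, the cAMP response element TGACGTCA and its shorter core TGACG. Both strands were read for exact letters only, so an element with other letters would not be marked. The D-box TTACATAA was also searched and is the reverse complement of TTATGTAA, and TGACG lies within TGACGTCA. The windows of Bmal1, Per2, Per3 and Nr1d1 are shown because these members differed most between the strains, with matches in capitals.

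Bmal1 (GRCr8, chr1:176766078-176766327, plus strand): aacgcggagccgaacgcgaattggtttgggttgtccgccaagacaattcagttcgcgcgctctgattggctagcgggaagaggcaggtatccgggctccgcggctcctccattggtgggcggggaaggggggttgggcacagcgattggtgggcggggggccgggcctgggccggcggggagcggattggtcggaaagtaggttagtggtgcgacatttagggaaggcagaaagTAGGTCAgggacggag

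Per2 (GRCr8, chr9:99496994-99497243, minus strand): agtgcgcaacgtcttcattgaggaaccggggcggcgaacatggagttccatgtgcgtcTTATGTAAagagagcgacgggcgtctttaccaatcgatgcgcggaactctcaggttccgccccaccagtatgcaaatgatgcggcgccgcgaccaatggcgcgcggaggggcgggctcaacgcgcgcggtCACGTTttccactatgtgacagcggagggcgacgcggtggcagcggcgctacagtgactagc

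Per3 (GRCr8, chr5:166777801-166778050, minus strand): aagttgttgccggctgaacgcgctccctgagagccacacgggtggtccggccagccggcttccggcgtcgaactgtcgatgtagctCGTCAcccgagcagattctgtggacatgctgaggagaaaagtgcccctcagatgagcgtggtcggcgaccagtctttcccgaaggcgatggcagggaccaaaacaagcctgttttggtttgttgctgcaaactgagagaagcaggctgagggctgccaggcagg

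Nr1d1, first start (GRCr8, chr10:84231813-84232062, minus strand): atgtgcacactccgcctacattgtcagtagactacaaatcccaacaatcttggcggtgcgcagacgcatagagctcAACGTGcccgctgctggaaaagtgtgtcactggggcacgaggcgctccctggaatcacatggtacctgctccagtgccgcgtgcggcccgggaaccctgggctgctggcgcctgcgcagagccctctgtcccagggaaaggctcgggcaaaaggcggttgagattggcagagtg

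Nr1d1, second start (GRCr8, chr10:84229455-84229704, minus strand): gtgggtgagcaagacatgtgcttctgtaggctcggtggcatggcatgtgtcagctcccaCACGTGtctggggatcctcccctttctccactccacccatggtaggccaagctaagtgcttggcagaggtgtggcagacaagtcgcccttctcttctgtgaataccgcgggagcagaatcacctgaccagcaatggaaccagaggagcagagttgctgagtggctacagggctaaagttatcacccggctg

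The Bmal1 window held TAGGTCA from 16 to 10 bases before the start, a core found in 2.26% of all 33469 windows. The Per2 window held CACGTT from 62 to 57 bases and TTATGTAA from 192 to 185 bases before the start, present in 4.07% and 0.828% of windows. The first Nr1d1 window held CACGTT on the opposite strand, printed as AACGTG, and the second held CACGTG, which 5.59% of windows contain. The Per3 window held only the shorter cAMP core on the opposite strand, printed as CGTCA, which 18.2% of windows share. Neither of the 2 Clock windows held a match. Of the remaining motifs, TGGGTCA occurred in 3.44%, TGACGTCA in 1.59%, TTATATAA in 0.436% and TTACGTAA in 0.108% of windows. These matches are letters in a window and do not show that a factor is bound there. None of the 5 members with a window lay on chromosome 4, from which the congenic segment comes. Cry1 had no window, and the places of other clock genes were not looked up.

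The values are log2 expression values from robust multi-array averaging (RMA), so a difference of 1 is a 2-fold change. They carry no detection calls, and the level of a probe set cannot be set against that of another. Array medians lay between 5.21 and 5.38, lower quartiles between 2.84 and 2.93, and upper quartiles between 7.38 and 7.65. PD arrays 1 and 2 differed by a median of 0.26 over probe sets. That was more than any PD array differed from a PD.SHR4 array (0.19 to 0.24). Cd36, the fatty acid translocase that SHR lacks, checked the labels: its probe set, shared with Cd36l1, was lower in both PD.SHR4 arrays, by 3.19 on the log2 scale (limma, adjusted p = 0.0149). Hepatocyte markers (10 of 12 measured) averaged 12.35 to 12.41 on the arrays, with albumin (Alb) above 13 on each. Tissue was measured whole, so fewer cells of a type and less RNA per cell cannot be told apart.

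Of the 6 members, 1 fell in PD.SHR4, 2 rose and 3 did not pass the test (limma, Benjamini-Hochberg adjusted p under 0.05 over all probe sets). Bmal1 was 12.0-fold lower, Per3 was 5.45-fold higher and Per2 was 3.60-fold higher. Across the array 0.932% of probe sets passed (82 of 8797), 0.273% as higher and 0.659% as lower. The lower calls made up 70.7% of these, against 59.0% with median-centred arrays and 58.0% with quantiles normalised once more. For all 6 members, 3 higher and 3 lower in PD.SHR4, the PD and PD.SHR4 arrays were fully separated. That holds for 31.9% of all probe sets, 14.8% higher and 17.1% lower, so separation alone is a weak criterion here. An unadjusted p under 0.05 was reached by 13.8% of all probe sets (1211 of 8797), the share against which the unadjusted counts given for gene lists are to be read. Those lists were chosen with earlier results of these data known, so their counts only describe.

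**Figure D1:**
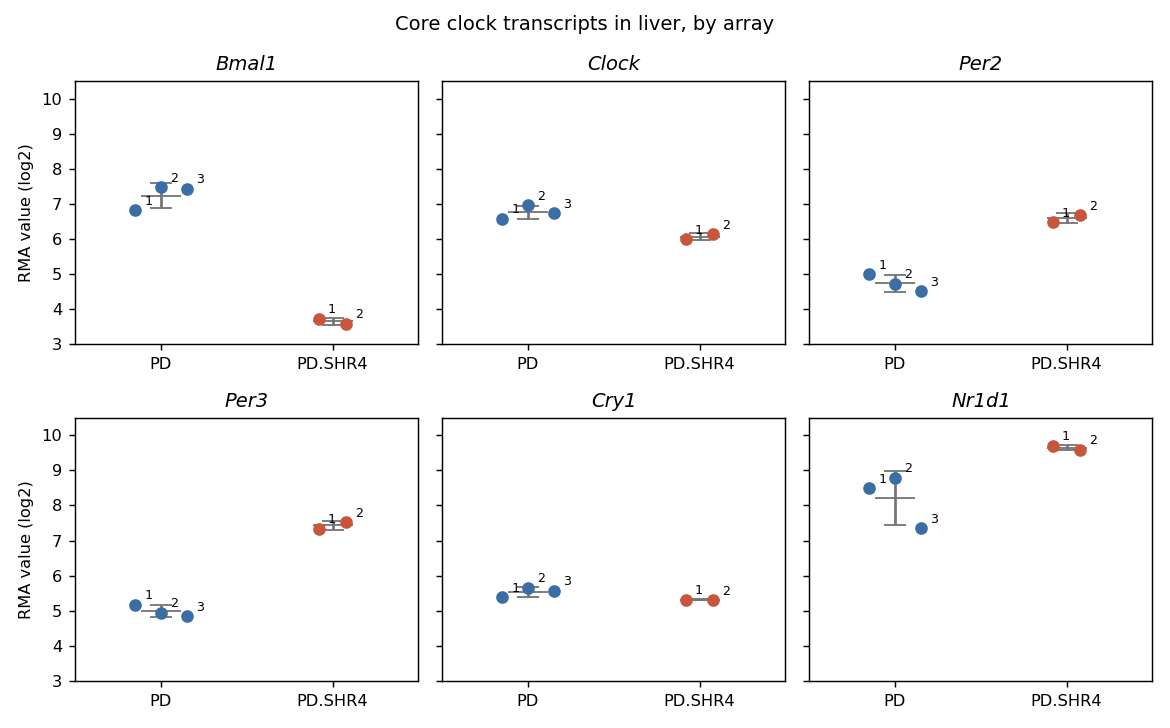
RMA values (log2) of the 6 clock members on each array, PD in blue and PD.SHR4 in red, with the array number beside each point and the bar showing mean ± SD (n = 3 PD and n = 2 PD.SHR4 arrays). The 2 PD.SHR4 arrays lie far below PD for Bmal1 and far above for Per2 and Per3, while Cry1 nearly meets; heights should be compared within a panel only.

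Among the activators, Bmal1 showed the larger difference. It measured 6.81, 7.47 and 7.43 in PD and 3.73 and 3.59 in PD.SHR4. The lowest PD array stood 3.09 above the highest PD.SHR4 array, and both PD.SHR4 values lay between the lower quartile and the median of their arrays. Without detection calls, that place does not show whether Bmal1 was detected in PD.SHR4. The difference was -3.58 ± 0.23 (SE), with a 95% interval of -4.14 to -3.02 and an adjusted p of 0.00737 (limma). By size it ranked 5 of 8797 probe sets, and by p it ranked 6.

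Clock, the partner of Bmal1, measured 6.58, 6.96 and 6.74 in PD and 5.998 and 6.13 in PD.SHR4. All PD arrays were above both PD.SHR4 arrays, with a gap of 0.45 between the nearest. The difference was -0.69 ± 0.15 (SE), 1.62-fold, with a 95% interval of -1.07 to -0.32. It had an unadjusted p of 0.00413 and did not pass after adjustment (limma, adjusted p = 0.121).

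Per2 and Per3, whose proteins carry the negative arm of the loop together with the cryptochromes, were both higher in PD.SHR4. Per2 measured 4.99, 4.72 and 4.503 in PD and 6.48 and 6.68 in PD.SHR4, so the nearest arrays of the strains were 1.49 apart. Its difference was 1.85 ± 0.18 (SE), with a 95% interval of 1.41 to 2.28 (limma, adjusted p = 0.0243). Per3 measured 5.18, 4.94 and 4.85 in PD and 7.34 and 7.52 in PD.SHR4. Here the nearest arrays were 2.17 apart, and the difference was 2.45 ± 0.15 (SE), with a 95% interval of 2.08 to 2.81 (limma, adjusted p = 0.00737). Per3 ranked 3 by p among all probe sets, and Per2 ranked 18. Whether the pair differ in the size of their rise was not tested.

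Cry1, a cryptochrome that represses the BMAL1 and CLOCK dimer, measured 5.39, 5.65 and 5.57 in PD and 5.32 and 5.30 in PD.SHR4. The strains were separated by only 0.069, less than the SD of the PD arrays (0.13, n = 3). The difference was -0.23 ± 0.13 (SE) and did not pass (limma, adjusted p = 0.537). Its 95% interval, -0.54 to 0.091, leaves room for a modest fall and for a small rise.

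Nr1d1, the repressor of Bmal1, measured 8.49, 8.79 and 7.35 in PD and 9.70 and 9.59 in PD.SHR4. Both PD.SHR4 arrays were above every PD array, the nearest by 0.80, but PD array 3 stood well below the other PD arrays. The difference was 1.43 ± 0.42 (SE), 2.70-fold, with a 95% interval of 0.40 to 2.47, an unadjusted p of 0.0151 and an adjusted p of 0.216 (limma), so it did not pass. Its SD between arrays within a strain stood at percentile 97.3 of all probe sets, while that of Bmal1 was at 81.2 and those of Per2, Clock, Per3 and Cry1 at 63.1, 47.2, 43.8 and 25.1. Without PD array 3 the difference of Nr1d1 was 1.00 ± 0.17 (SE; limma, adjusted p = 0.159).

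**Figure D2:**
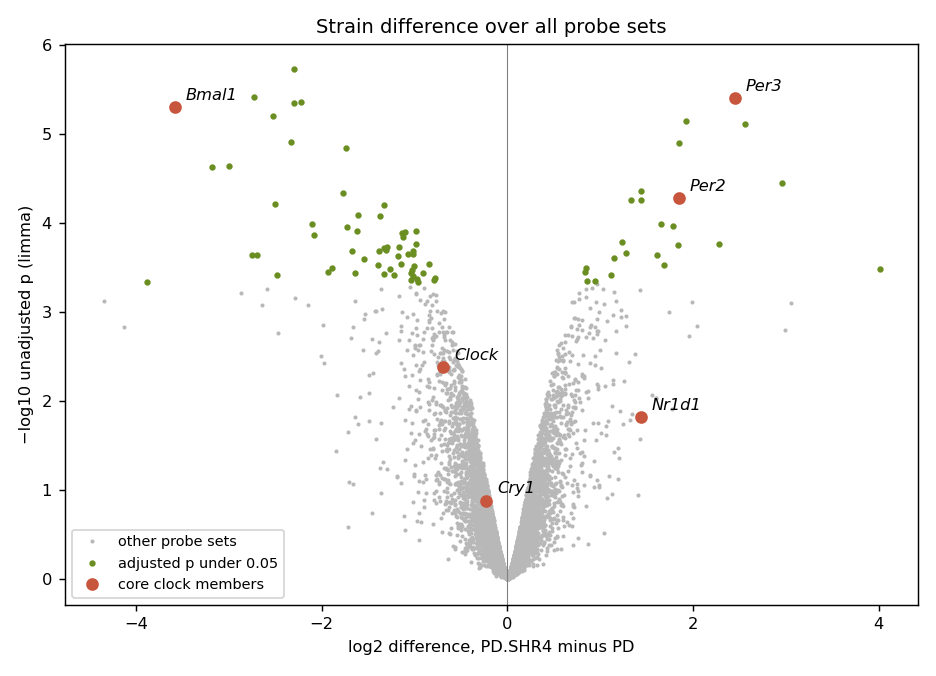
Strain difference (PD.SHR4 minus PD, log2) of all 8797 probe sets against −log10 of the unadjusted limma p, with the 82 probe sets past an adjusted p of 0.05 in green and the 6 members in red. Bmal1, Per2 and Per3 lie among the probe sets past the threshold, and Clock, Nr1d1 and Cry1 below it.

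The calls of the members depended on having both PD.SHR4 arrays. Leaving out PD.SHR4 array 1 or 2 left 0 of 6 members past the threshold (limma), although 4 of 6 had an unadjusted p under 0.05 each time. Without PD.SHR4 array 1 the adjusted p was 0.103 for Bmal1 and Per3 and 0.209 for Per2, and without array 2 it was 0.130 for Bmal1 and Per3 and 0.294 for Per2. Those fits took the spread from PD alone, and in them no probe set passed. Per2 also missed the threshold, at an adjusted p of 0.0510 without PD array 2 and 0.0560 without PD array 3 (limma). Bmal1 and Per3 passed on leaving out any 1 PD array. Every member kept its direction in all 10 alternative fits, but leaving out an array could not have changed it, since the strains did not overlap. Of the other alternatives, only median centring and further quantile normalisation could have changed it.

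**Figure D3:**
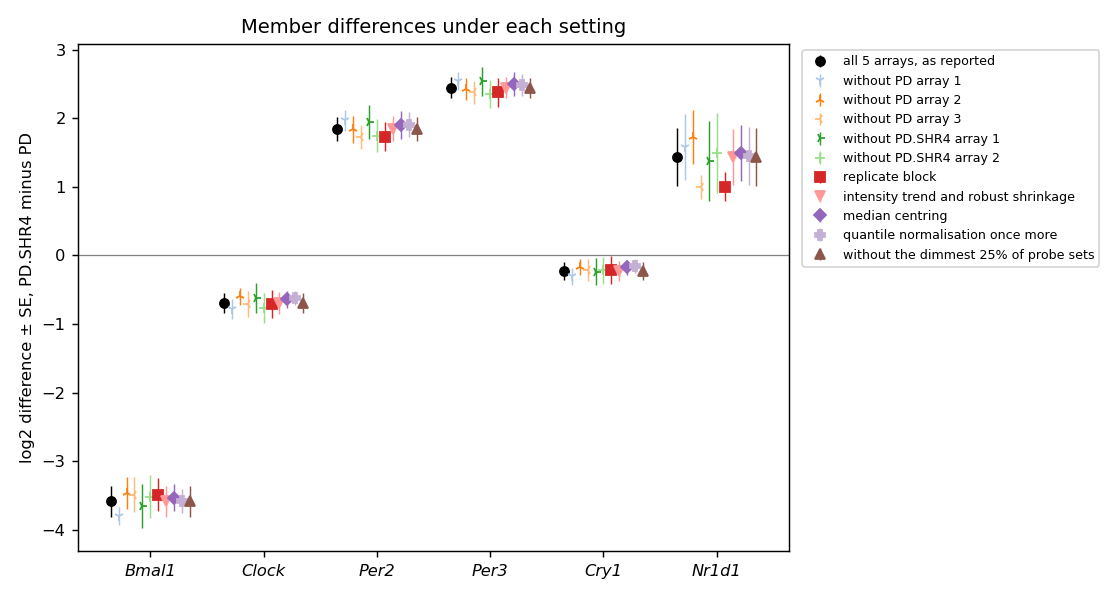
Log2 difference ± SE of each member (PD.SHR4 minus PD) with all 5 arrays and under 10 alternative settings, by marker. Bmal1 stays between -3.79 and -3.46 and Per3 between 2.35 and 2.54, while Nr1d1 ranges from 1.00 to 1.72.

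The arrays within PD were not equal in these genes. PD array 1 had the lowest Bmal1, Clock and Cry1 and the highest Per2 and Per3 of the PD arrays, and its Nr1d1 was above the PD mean. Its deviation from the PD mean thus pointed toward PD.SHR4 in 6 of 6 members, against 1 of 6 for PD array 2 (Nr1d1) and 1 of 6 for PD array 3 (Clock). Over all 8797 probe sets the shares for PD arrays 1, 2 and 3 were 52.4%, 47.8% and 51.6%. The deviations of the 3 PD arrays sum to 0 in each gene, so the counts of the arrays are not independent. Nor are the members independent of each other, being genes of 1 loop. The deviations of PD array 1 were -0.42 for Bmal1, 0.25 for Per2, 0.19 for Per3 and 0.28 for Nr1d1. They were -0.18 for Clock, whose strain difference was -0.69, and -0.15 for Cry1, whose strain difference was only -0.23. The PD.SHR4 arrays differed from each other by at most 0.20 in any member.

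Other genes of the core loop were thinly covered: 3 of the 10 listed were measured under 1 symbol, and 0 of the 3 passed (limma; 1 had an unadjusted p under 0.05). Cry2, the second cryptochrome gene, measured 6.02, 6.49 and 5.999 in PD and 6.91 and 7.02 in PD.SHR4, with no overlap. Its difference was 0.80 ± 0.18 (SE; limma, adjusted p = 0.135), opposite in sign to that of Cry1. Bhlhe40, a repressor that competes for E-boxes, measured 0.15 ± 0.17 (SE). Its relative Bhlhe41 measured 0.52 ± 0.25 (SE) at low levels, 2.42 to 2.94 in PD and 2.83 to 3.48 in PD.SHR4. The arrays of the strains overlapped for both.

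Among clock output transcription factors, 1 of 5 measured rose, 1 fell and 3 did not pass, where 0.932% of all probe sets passed. An unadjusted p under 0.05 (limma) was reached by 3 of the 5, against 13.8% of all probe sets. Dbp, a PAR bZIP activator driven directly by the BMAL1 and CLOCK dimer, rose 16.1-fold, from 7.19, 5.70 and 5.34 in PD to 10.0 and 10.2 in PD.SHR4 (limma, adjusted p = 0.0457). PD array 1 was again the PD array nearest to PD.SHR4, as it was for Tef and Nfil3. Among the liver outputs described below, it was nearest for Usp2 and Avpr1a but farthest for Wee1, Nr1i3 and Gys2. Nfil3, a repressor that opposes Dbp at D-boxes and is itself repressed by REV-ERB alpha, fell 2.91-fold (limma, adjusted p = 0.0414). Tef, a relative of Dbp, measured 1.28 ± 0.23 (SE; limma, adjusted p = 0.0784) and passed only with a replicate block (adjusted p = 0.0301), and the Krüppel-like factors Klf9 and Klf10 measured 0.22 ± 0.16 and -0.077 ± 0.13 (SE). Dbp did not pass without PD array 2 or 3, nor Nfil3 without any 1 PD array, nor either without a PD.SHR4 array, with adjusted p up to 0.373 for Dbp and 0.294 for Nfil3.

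Of 21 genes listed as clock-driven outputs of the liver, 10 were measured, 3 rose, 0 fell and 7 did not pass (limma; 7 of the 10 had an unadjusted p under 0.05, against 13.8% of all probe sets). Their median difference was 0.58, against 0.0030 over all genes with 1 symbol. The list was chosen with earlier results of these data known, so these values are a description and no independent support. Por, the reductase that supplies cytochromes P450 with electrons, rose 3.60-fold and measured 8.41 to 8.70 in PD against 10.3 and 10.4 in PD.SHR4 (limma, adjusted p = 0.0100). Nr1i3, the xenobiotic receptor CAR, rose 3.57-fold (limma, adjusted p = 0.0392). Usp2, a deubiquitinase of clock proteins, rose 2.71-fold and measured 5.71 to 5.99 in PD against 7.21 and 7.28 in PD.SHR4 (limma, adjusted p = 0.0243). The cell cycle kinase gene Wee1, with an E-box-driven rhythm, measured 0.72 ± 0.11 (SE) and the glycogen synthase gene Gys2 0.96 ± 0.15 (SE), each with an adjusted p of 0.0606 (limma). Wee1 passed with further quantile normalisation and without the dimmest 25% of probe sets. Gys2 passed with a replicate block, with trended robust shrinkage and without the dimmest 25%. Values below 0 included the phosphatidate phosphatase Lpin1 at -1.10 ± 0.25 (SE), which passed only with a replicate block (limma, adjusted p = 0.0166), and the vasopressin receptor Avpr1a at -1.08 ± 0.22 (SE). Usp2 and Nr1i3 did not pass without PD array 3, nor Nr1i3 without PD array 1 (limma, adjusted p up to 0.294 and 0.373 over the alternatives), and without either PD.SHR4 array none of the 3 passed.

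**Figure D4:**
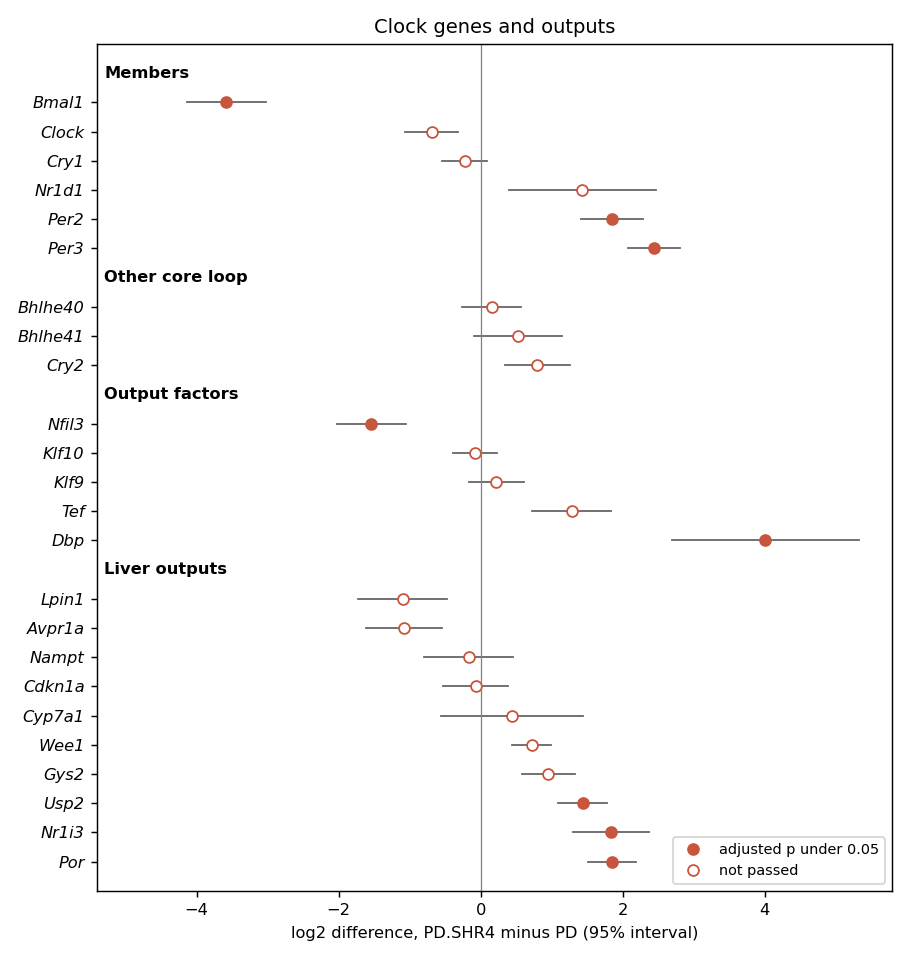
Log2 difference, PD.SHR4 minus PD, with its 95% interval from the limma fit, for the 6 members and 3 lists of related genes; filled points passed an adjusted p of 0.05. Dbp has the highest value at 4.01 and Bmal1 the lowest at -3.58.

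**Figure D5:**
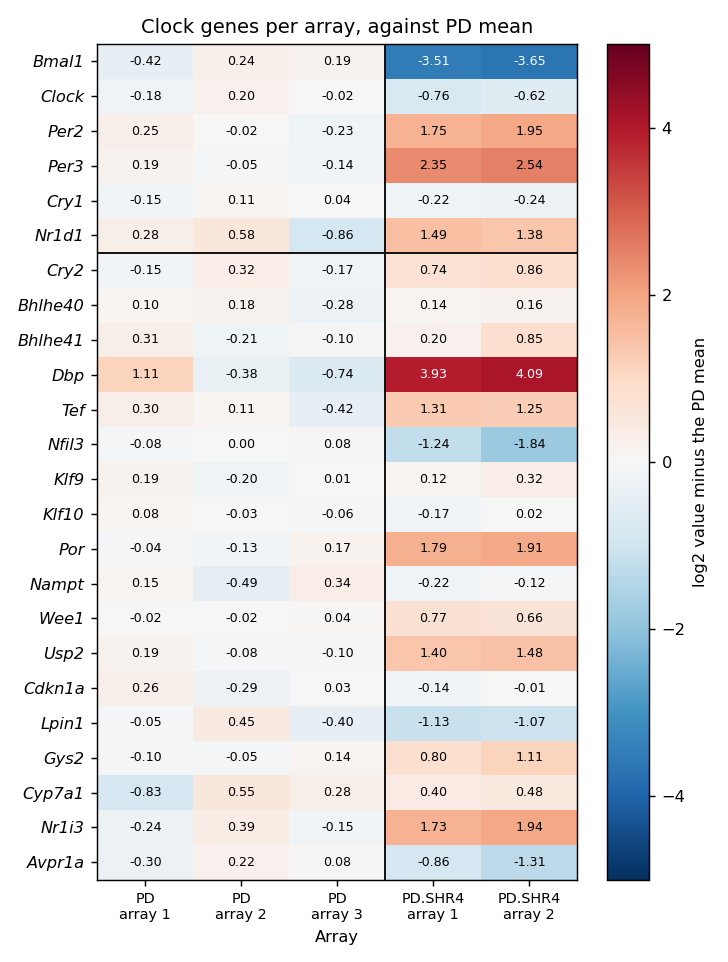
Log2 value of each clock gene on each array minus the mean of its 3 PD arrays, with the members above the horizontal line and the PD.SHR4 arrays right of the vertical line. In PD array 1, Bmal1 is at -0.42 and Dbp at 1.11, both in the direction of their PD.SHR4 values. Cry2, Nr1i3 and Gys2 lie the other way on that array.

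Of 14 measured kinases, phosphatases and ubiquitin pathway genes acting on clock proteins, Usp2 alone rose, 0 fell and 13 did not pass. Their median was 0.054. Across the array 0.932% of probe sets passed. In this list 2 of the 14 had an unadjusted p under 0.05 (limma), against 13.8% of all probe sets. Usp2 is also counted among the liver outputs. Prkaa2, a catalytic subunit of the energy-sensing kinase AMPK that marks cryptochromes for decay, measured 0.55 ± 0.13 (SE; limma, adjusted p = 0.156). Csnk1d, a casein kinase that phosphorylates PER proteins, measured -0.29 ± 0.12 (SE; limma, adjusted p = 0.374). Ppp1ca, a protein phosphatase subunit, measured 0.20 ± 0.12 (SE). Of 8 measured cofactors of the clock complexes 0 passed (limma; 0 had an unadjusted p under 0.05), with a median of -0.053 and values from -0.16 to 0.39. Ddb1 measured 0.28 ± 0.14, the corepressor deacetylase Hdac3 -0.16 ± 0.13, Nono 0.39 ± 0.41 and Ep300 -0.13 ± 0.15 (SE).

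Body temperature and glucocorticoids also carry daily rhythms to the liver. Of 4 measured temperature-linked transcripts, 1 rose and 3 did not pass, where 0.932% of all probe sets passed. An unadjusted p under 0.05 (limma) was reached by 2 of the 4, against 13.8% of all probe sets. Hsph1, a heat shock chaperone, rose 2.43-fold and measured 7.42 to 7.80 in PD against 8.79 and 8.86 in PD.SHR4 (limma, adjusted p = 0.0392), a call lost on leaving out any 1 array (adjusted p up to 0.373). Hspb1 measured 2.04 ± 0.36 (SE; limma, adjusted p = 0.0784), while the cold-inducible RNA-binding genes Cirbp and Rbm3 measured -0.39 ± 0.17 and -0.42 ± 0.18 (SE). Of 7 measured glucocorticoid-induced genes 0 passed (limma; 2 had an unadjusted p under 0.05, against 13.8% of all probe sets), with a median of -0.61. The tyrosine aminotransferase Tat measured -0.61 ± 0.21 and the immunophilin Fkbp5 0.69 ± 0.26 (SE), with adjusted p of 0.270 and 0.325 (limma). The phosphatase Dusp1 measured -0.88 ± 0.40 (SE) and the transcription factor Zbtb16 -0.63 ± 0.30 (SE).

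Likeness between genes was measured as the root mean square (RMS) difference of values centred on each gene's mean over the 5 arrays. Such values keep the strain difference, so the nearest genes are largely those with a similar strain difference. Nearest to Bmal1 were Insig1 (RMS 0.32), which retains the SREBP factors, Apol3l1 (0.47) and Acp3 (0.54). Nearest to Per2 were Usp2 (0.22), Cyp3a2 (0.22) and Por (0.23), and nearest to Per3 were the steroid hydroxylase Cyp17a1 (0.21), the sterol transporter Abcg5 (0.23) and Per2 (0.30). Clock lay nearest to Pdia6 (0.038), Plin2 (0.046) and Mapk9 (0.046), Cry1 to Il15 (0.011), Ddost (0.021) and Psma5 (0.024), and Nr1d1 to Cyp3a18 (0.16), Cyp3a2 (0.24) and Slco1a4 (0.26). The RMS scales with the spread of the genes themselves, so distances cannot be compared between members.

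Markers of immune cells were lower in PD.SHR4 in the median, but no marker of any cell type passed the test. All 9 measured Kupffer cell and macrophage markers (of 13 listed) had values below 0, with a median of -0.49, although 0 passed (limma; 7 had an unadjusted p under 0.05, against 13.8% of all probe sets). Their mean level was 8.72 to 8.89 in PD and 8.34 to 8.36 in PD.SHR4. Lymphocyte markers (10 of 15 measured) averaged 4.40 to 4.58 in PD and 3.92 to 3.94 in PD.SHR4. Their median difference was -0.42, with 8 values below 0 and 2 above, and the lowest was that of the granzyme gene Gzmb at -2.01; 0 passed (limma; 5 had an unadjusted p under 0.05). Both measured neutrophil markers and both measured erythroid markers were below 0, with medians of -0.74 and -0.44. Stellate cell and fibroblast markers went both ways (2 above 0 and 4 below, median -0.29), as did the 2 measured cholangiocyte markers (median 0.14). Of the 7 listed endothelial markers, 0 were measured under 1 symbol. Hepatocyte markers differed by a median of 0.040. Without detection calls, the values do not show which of these markers were detected. The part of cell composition in the clock gene differences was not tested.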

How the data were processed

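The authors deposited log2 expression values of core-gene probe sets, computed with RMA in Expression Console, per the labels; Partek is also named in the submitters' processing notes. Versions, annotation release and genome build were not given in the sources used here. RMA subtracts background, equalises array distributions and summarises probes, which damps differences of dim genes and ties each value to the other arrays.

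Probe sets were named by the platform annotation: 7603 of 8797 had 1 symbol, 409 several and 785 none in that table, and 7584 matched RefSeq (GRCr8) gene IDs. Of a gene with several probe sets the brightest was used. PD.SHR4 was compared with PD by limma 3.58.1 in R 4.3.3 (lmFit, eBayes, two-sided, no covariate, Benjamini-Hochberg over all probe sets), tested on simulated data. Intervals and SE (standard errors) use the moderated variances. No set test was run. The arrays share no stated pairing. The number of arrays limits the precision.

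Named were every member, every other measured core loop gene, in further lists those past the threshold and up to 4 by smallest p, and the 3 nearest genes per member. The members and lists were chosen with earlier results of these data known. Alternatives were leaving out each array, a replicate block, trended robust shrinkage, median centring, further quantile normalisation and leaving out the dimmest 25% of probe sets. Protein sequences were not compared.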

Additional observations from a re-analysis of the deposited data

How the results depend on the processing

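Direction held for all 6 members in all 10 alternatives, though only median centring and further quantile normalisation could have changed it. Trended shrinkage and the dim filter left each difference as it was, and the replicate block gave those without PD array 3. No alternative brought Clock, Cry1 or Nr1d1 past the threshold. Leaving out 1 array gave differences of -3.79 to -3.46 for Bmal1, 1.73 to 1.97 for Per2 and 2.35 to 2.54 for Per3, and 0 to 3 members changed (0 to 2 higher, 0 to 1 lower). The same fits gave 0 to 55 changed probe sets, 0 to 25 higher and 0 to 30 lower, with 0 on leaving out either PD.SHR4 array (limma; 737 or 710 had an unadjusted p under 0.05). They gave 0 to 1 changed output factors, 0 to 1 genes acting on clock proteins, 0 to 3 liver outputs and 0 temperature-linked genes.

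With the replicate number as a block, 163 probe sets changed, 64 higher and 99 lower, with 3 output factors (Tef now among them), 5 liver outputs (4 higher and Lpin1 lower) and 2 temperature-linked genes, and the 3 member calls held. Nr1d1 then measured 1.00 (limma, adjusted p = 0.0503), as without PD array 3, which is alone in its block. The block uses up much of the information on spread in 5 arrays. Calls under it therefore lean more on the variance shared across probe sets. Same-numbered arrays correlated in their deviations from the strain mean at 0.050 and 0.082 over probe sets, so the numbers are not shown to pair arrays. Trended robust shrinkage gave 151 changed probe sets (53 higher, 98 lower), with 4 liver outputs. Without the dimmest 25% there were 149 (52 higher, 97 lower), with 5 liver outputs, and Bhlhe41 was not among those tested. Median centring gave 41 higher and further quantile normalisation 47 higher. After the latter, Cry2 rose (limma, adjusted p = 0.0484) and 4 liver outputs passed. Of the output factors 1 then passed, and Dbp did not. Fewer genes tested bears on the dim filter; otherwise the cause was not tested. With 5 arrays, differences as small as that of Cry1 lie within the error.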

Other observations

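The lean of PD array 1 toward PD.SHR4, seen in 6 of 6 clock members, was weaker over the whole array. Its deviation from the PD mean had the sign of the strain difference in 54 of the 82 changed probe sets (65.9%), against 44 (53.7%) for PD array 2 and 19 (23.2%) for PD array 3. Over all 8797 probe sets the shares were 52.4%, 47.8% and 51.6%. These are counts over probe sets that share arrays, with no test.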
